A study of Mus musculus with 16 samples.

Results

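Mouse embryonic stem cells labelled as overexpressing the histone demethylase KDM6B without its intrinsically disordered region (KDM6B del-IDR) were compared with cells labelled as overexpressing the full-length protein (KDM6B FL), by the RNA held on chromatin, across all genes and repeats. The gene counts do not show a clear excess of Kdm6b in the FL libraries, so del-IDR and FL stand throughout for the libraries so labelled. The 4 libraries compared, 2 per group, were chosen by their labels from 16 libraries in 8 groups; the other groups carried KDM6A, KDM4A or KDM4B in the same 2 forms. All cells were of the male line E14TG2a, grown with LIF at 1000 U per ml, the MEK inhibitor PD0325901 at 1 µM and the GSK3 inhibitor CHIR99021 at 3 µM, the medium that holds such cells in a naive pluripotent state. By the labels every group carried a construct, so the contrast sets the shortened against the full-length form and not against cells without one. The sample titles write del-cIDR where the genotype label has del-IDR, and neither gives the residues removed, the promoter of the construct or the number of clones. Nothing in the labels says if replicate libraries were grown apart, and the p-values therefore cover the spread between the libraries at hand, which may be technical.

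KDM6B, also called JMJD3, removes methyl groups from lysine 27 of histone H3, the mark laid down by Polycomb repressive complex 2 over silent developmental genes. Its relative KDM6A (UTX) acts on the same lysine and works inside the MLL3/4 COMPASS complexes. An intrinsically disordered region is a stretch of protein without a fixed fold. RNA on chromatin is rich in transcripts still being made, together with noncoding RNAs that stay in the nucleus, so it holds more intron sequence than total RNA does.

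The del-IDR libraries held 49263321 and 54890756 reads over genes, against 48894860 and 47069827 in the FL libraries. Levels are given as CPM, read counts scaled to library size. Log2 CPM of the 2 libraries of a group correlated at 0.987 across genes in each KDM6B group. The RNA mix also differed between the groups. Synthetic ERCC RNAs, which are in the tables but are not mentioned in the labels, made up 1.52% and 1.55% of gene reads in del-IDR libraries, against 1.15% and 1.24% in FL libraries. Mitochondrial transcripts made up 0.659% and 0.691% in del-IDR libraries, against 0.536% and 0.531% in FL libraries, and reads on repeats inside gene spans came to 39.3 and 39.6 per 100 gene reads in del-IDR libraries, against 48.8 and 47.8 in FL libraries. These 3 measures did not overlap between the groups, and their part in the results below was not tested. Scaling on the ERCC reads moved the median gene by -0.38 on the log2 scale, so changes are given relative to the typical gene, and rises smaller than that shift turn into falls under ERCC scaling.

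Stem cell identity was present in all 4 libraries. Nanog had 220 and 228 CPM in del-IDR libraries, against 221 and 222 CPM in FL libraries, and the naive marker Zfp42 had 564 and 563 CPM in del-IDR libraries, against 556 and 550 CPM in FL libraries. Neither passed the test. Kdm6b itself (chr11:69289334-69304501, GRCm39) had 93.0 and 96.3 CPM in del-IDR libraries, against 78.0 and 85.2 CPM in FL libraries, a log2 fold change of 0.21 ± 0.06 (SE, adjusted p = 0.00816, edgeR quasi-likelihood), which became -0.16 under ERCC scaling. The 12 libraries of the other demethylases had 69.1 to 81.4 CPM, so both del-IDR libraries lay above them and the FL libraries overlapped them. Kdm6a by comparison had 415 to 441 CPM in the KDM6A libraries, against 95.7 to 156 CPM in the 12 libraries of the other demethylases. Kdm6b counts thus show at most a small excess in the KDM6B libraries. Any construct reads counted at Kdm6b cannot be told from those of the cells' own gene, and how far construct reads are counted there was not tested. The call was lost without del-IDR replicate 2 (0.18, adjusted p = 0.113) and without FL replicate 1 (0.15, adjusted p = 0.196). Kdm6a had 95.7 and 95.7 CPM in del-IDR libraries, against 98.5 and 100.3 CPM in FL libraries, and Kdm6a, Kdm4a and Kdm4b did not pass the test.

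Of 31057 genes tested in 1 fit of all 16 libraries, 6407 (20.6%) changed at an adjusted p under 0.05: 3072 (9.89%) rose in del-IDR cells and 3335 (10.7%) fell. Under ERCC scaling the rises came to 661 and the falls to 13293. Of genes with a higher group mean under 1 CPM 1.99% rose and 1.85% fell, against 19.6% and 23.3% over 100 CPM. The part of level in the list counts below was not tested. Rises of at least 2-fold numbered 498 (1.6%) and falls of that size 416 (1.34%). The kinds of genes differed: 338 of the 2-fold rises were protein-coding, against 59 of the 2-fold falls. At 58.0% of tested genes the del-IDR and FL libraries did not overlap, so a gap between 2 and 2 libraries is common here and is no support on its own.

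**Figure D1:**
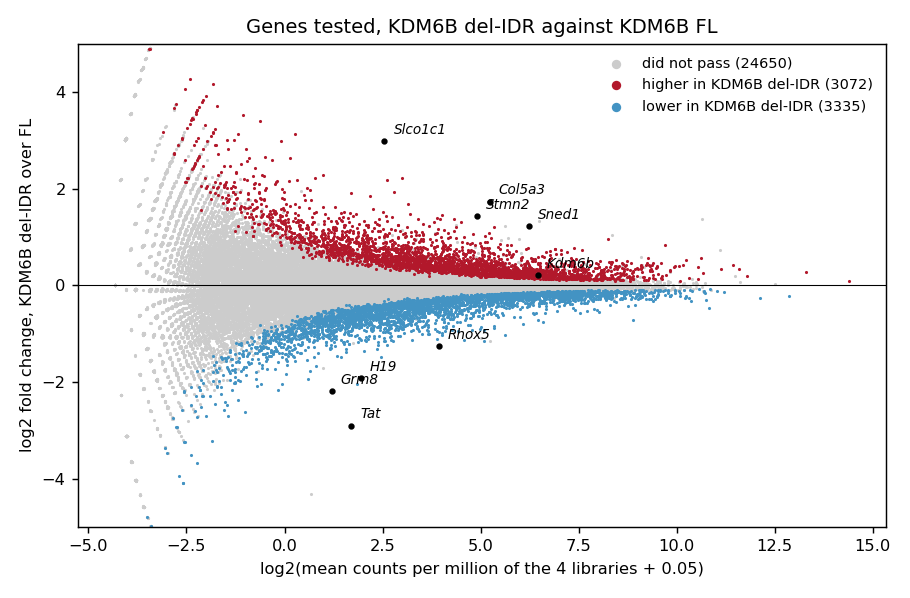
Log2 fold change of KDM6B del-IDR over FL (vertical axis) against mean CPM of the 4 libraries (horizontal axis, log2 with 0.05 added) for the genes tested. Points in red rose (3072) and points in blue fell (3335) at an adjusted p under 0.05, and 74 genes lie beyond the vertical limits of 5.

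Genes ranked here had at least 1 CPM in the higher group, libraries that did not overlap and a symbol other than a gene model. Among them the 10 largest rises were all in protein-coding genes with low levels in FL libraries. Slco1c1, a thyroid hormone transporter of brain vessels (chr6:141470094-141515903, GRCm39), had 10.2 and 10.4 CPM in del-IDR libraries, against 1.45 and 1.15 CPM in FL libraries. It was the clearest of them, with a log2 fold change of 2.98 ± 0.09 (SE, adjusted p = 3.2e-24), and it stayed at 2.60 under ERCC scaling. Slc26a4, the anion exchanger pendrin, had 1.20 and 0.980 CPM in del-IDR libraries, against 0.0217 and 0.181 CPM in FL libraries. Pou4f2, a transcription factor of retinal ganglion cells, had 1.98 and 2.14 CPM in del-IDR libraries, against 0.217 and 0.248 CPM in FL libraries (log2 fold change 3.13 ± 0.41, SE, adjusted p = 2.3e-07). For each of these genes both del-IDR libraries lay above both FL libraries, which the choice of genes required.

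Nsg2, a vesicle protein of neurons, rose by 2.99 on the log2 scale, and Syt6, a synaptotagmin of the secretory pathway, by 2.61. Hrh3, the histamine H3 receptor of brain, had 1.20 and 1.08 CPM in del-IDR libraries, against 0.130 and 0.226 CPM in FL libraries. Mylk2, the myosin light chain kinase of skeletal muscle, rose by 2.64, Gdap1l1 by 2.28, Shisal2b by 2.28 and Pkhd1, which encodes fibrocystin of the primary cilium, by 2.23. All 10 of these largest rises kept a log2 fold change of at least 1.85 under ERCC scaling.

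Among genes within the same limits that rose at least 2-fold, the most abundant were well read in both groups. Sned1, an extracellular matrix glycoprotein, had 105 and 104 CPM in del-IDR libraries, against 45.9 and 43.8 CPM in FL libraries (log2 fold change 1.22 ± 0.05, SE, adjusted p = 1.8e-19). Col5a3, a chain of type V collagen, had 58.8 and 56.7 CPM in del-IDR libraries, against 16.9 and 17.9 CPM in FL libraries (1.73 ± 0.07, SE, adjusted p = 4.1e-20). Stmn2, which regulates microtubules in growing axons, had 43.3 and 44.0 CPM in del-IDR libraries, against 16.1 and 16.3 CPM in FL libraries (1.43 ± 0.07, SE, adjusted p = 1.4e-17). The del-IDR libraries of these genes lay close together and well above both FL libraries. Kcnt1, a sodium-activated potassium channel, had 29.4 and 28.7 CPM in del-IDR libraries, against 10.2 and 12.2 CPM in FL libraries. Nfasc, an adhesion protein of the axon initial segment, rose by 1.03 on the log2 scale. Also among them were Vill, a villin-like actin-binding protein (1.09), Slfn9 of the Schlafen family (1.07), Gpr179, a receptor of retinal bipolar cells (1.01), and H2-D1, a class I histocompatibility gene (1.12). H2-D1 belongs to a family of near-identical copies, so its count is uncertain.

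**Figure D2:**
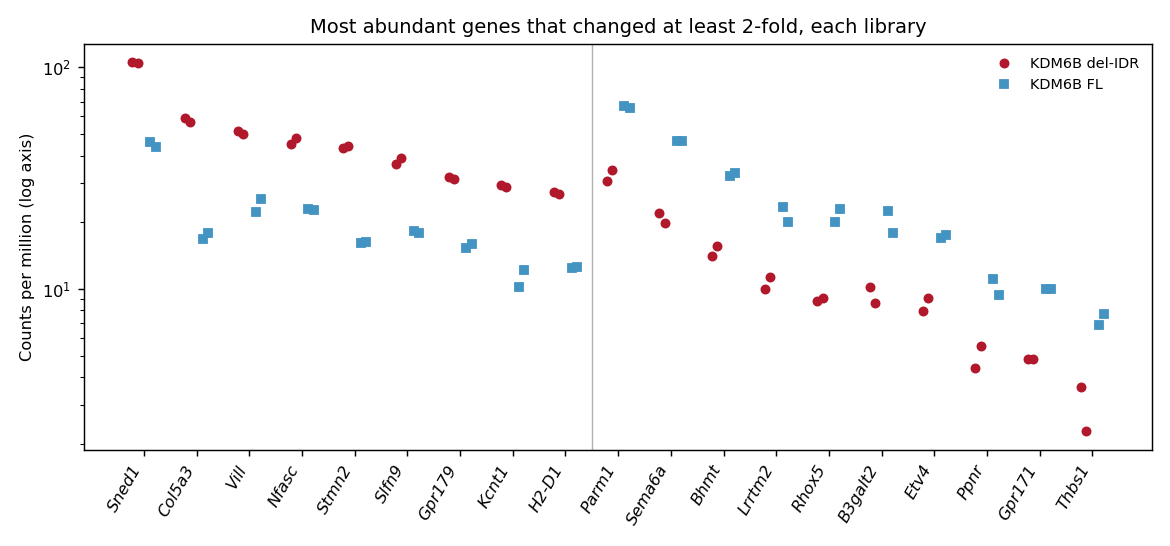
CPM in each library (vertical axis, log scale) of 9 of the 10 most abundant genes that rose at least 2-fold (left of the line) and the 10 that fell at least 2-fold (right of it). Genes were ranked within the limits of level, separation and symbol given in the text. Red circles are the 2 KDM6B del-IDR libraries and blue squares the 2 KDM6B FL libraries; the groups do not overlap for any of these genes, a separation that the choice of genes required.

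Among genes within the same limits of level, separation and symbol, the 10 largest falls ran from -2.91 to -1.39 on the log2 scale. Tat, the liver enzyme tyrosine aminotransferase, had 0.956 and 0.549 CPM in del-IDR libraries, against 5.16 and 6.09 CPM in FL libraries (log2 fold change -2.91 ± 0.32, SE, adjusted p = 9.0e-09). Grm8, a metabotropic glutamate receptor (chr6:27275118-28135177, GRCm39), had 0.695 and 0.921 CPM in del-IDR libraries, against 3.14 and 4.24 CPM in FL libraries (-2.18 ± 0.28, SE, adjusted p = 2.3e-07). H19, an imprinted noncoding RNA expressed from the maternal allele, had 1.91 and 1.27 CPM in del-IDR libraries, against 5.65 and 6.39 CPM in FL libraries (-1.92 ± 0.29, SE, adjusted p = 4.6e-06). Both del-IDR libraries were low for each of them. Cdh20, a cadherin, fell by 2.17 on the log2 scale, Anxa3, an annexin, by 1.47, Slc3a1, part of the kidney cystine transporter, by 1.47, and Itga1, a collagen-binding integrin, by 1.39. The remaining 3 of the 10 largest falls were the pseudogene Hspe1-ps3 and the antisense genes Npn2 and Rbm46os, whose reads cannot be told from those of the other strand because the counting ignored strand. Calls were lost for Itga1 without del-IDR replicate 1 (adjusted p = 0.116), del-IDR replicate 2 (0.0807) or FL replicate 2 (0.114), for Rbm46os without del-IDR replicate 1 (0.0716), del-IDR replicate 2 (0.0535) or FL replicate 1 (0.0988), and for Npn2 without del-IDR replicate 2 (0.0794).

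Within the same limits Parm1 (a mucin-like membrane protein) was the most abundant gene to fall 2-fold. It had 30.5 and 34.5 CPM in del-IDR libraries, against 67.2 and 65.7 CPM in FL libraries. Rhox5, an X-linked homeobox gene that is silenced by DNA methylation in most tissues, had 8.80 and 9.10 CPM in del-IDR libraries, against 20.1 and 22.9 CPM in FL libraries (-1.26 ± 0.13, SE, adjusted p = 9.2e-10). Bhmt, an enzyme of methionine metabolism, had 14.1 and 15.6 CPM in del-IDR libraries, against 32.2 and 33.2 CPM in FL libraries (-1.14 ± 0.09, SE, adjusted p = 1.1e-11). Sema6a, an axon guidance ligand, fell by 1.16, Lrrtm2, a synaptic adhesion protein, by 1.02, and Etv4, an ETS factor induced by ERK signalling, by 1.01. B3galt2, Ppnr, Gpr171 and Thbs1, which encodes the matrix protein thrombospondin 1, also fell, the last by 1.32. Ppnr is annotated as sense-intronic and lies inside the span of Tcf7l2, which fell by 0.68. Its count cannot be told from intron reads of that gene.

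The promoters of the 2 most changed abundant genes in each direction that have an entry are shown because KDM6B acts on a mark that gathers on CpG-rich promoters. Each window runs from 250 bases before to 50 bases after the start site, on the gene's own strand, from RefSeq on GRCm38.p6, with CG dinucleotides in capitals. The Col5a3 window (chr9:20815018-20815317, minus strand) holds 20 CG and the Sned1 window (chr1:93235647-93235946, plus strand) 29, against 5 for Rhox5 (chrX:37754358-37754657, plus strand) and 8 for Bhmt (chr13:93637709-93638008, minus strand). These 4 windows are a description: 78.6% of the protein-coding genes tested had a window, under the 80% needed, so no comparison of CG content over all genes was made.
Col5a3: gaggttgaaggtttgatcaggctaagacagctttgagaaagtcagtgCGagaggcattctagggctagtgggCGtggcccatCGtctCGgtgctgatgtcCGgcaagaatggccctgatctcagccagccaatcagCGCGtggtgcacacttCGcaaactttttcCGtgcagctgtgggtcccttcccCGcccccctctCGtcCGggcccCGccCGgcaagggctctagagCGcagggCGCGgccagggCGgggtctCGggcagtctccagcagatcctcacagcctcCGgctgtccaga
Sned1: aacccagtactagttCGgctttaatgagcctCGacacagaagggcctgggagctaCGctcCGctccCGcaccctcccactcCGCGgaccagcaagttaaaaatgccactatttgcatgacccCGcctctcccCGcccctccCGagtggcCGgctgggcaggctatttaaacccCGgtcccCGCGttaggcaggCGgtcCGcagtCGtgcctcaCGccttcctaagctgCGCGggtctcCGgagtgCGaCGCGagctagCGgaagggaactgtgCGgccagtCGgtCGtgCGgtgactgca
Rhox5: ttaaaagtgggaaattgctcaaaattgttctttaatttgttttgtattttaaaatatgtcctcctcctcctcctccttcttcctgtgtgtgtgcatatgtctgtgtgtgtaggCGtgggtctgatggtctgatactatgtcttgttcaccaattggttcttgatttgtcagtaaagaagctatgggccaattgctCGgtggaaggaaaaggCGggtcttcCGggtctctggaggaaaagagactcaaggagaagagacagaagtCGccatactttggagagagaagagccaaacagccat
Bhmt: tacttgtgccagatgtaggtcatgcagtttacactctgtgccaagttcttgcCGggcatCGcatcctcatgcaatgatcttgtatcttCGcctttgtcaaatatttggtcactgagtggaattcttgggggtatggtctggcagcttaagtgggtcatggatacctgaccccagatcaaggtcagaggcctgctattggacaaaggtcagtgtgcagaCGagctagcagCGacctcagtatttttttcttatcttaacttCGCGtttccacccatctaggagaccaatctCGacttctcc

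Of the lineage lists the neural one had the highest share of calls. There 9 of 21 tested (42.9%) rose and 0 fell, against 9.89% and 10.7% of all genes. The median log2 fold change was 0.59 (0.21 under ERCC scaling, where 4 rose and 3 fell), against 0 and -0.38 over all genes tested. The members that rose were Stmn2, the RNA-binding protein Elavl3, the neurofilament chains Nefl and Nefm, neuronal tubulin Tubb3, the progenitor genes Nes and Pax6, the adhesion molecule Ncam1 and the splicing factor Rbfox3. Elavl3 had 18.3 and 20.2 CPM in del-IDR libraries, against 9.66 and 10.3 CPM in FL libraries (0.94 ± 0.09, SE, adjusted p = 6.2e-10). Nefm had 3.19 and 4.29 CPM in del-IDR libraries, against 1.39 and 1.47 CPM in FL libraries (1.39 ± 0.24, SE, adjusted p = 3.2e-05), and Nefl had 13.2 and 12.1 CPM in del-IDR libraries, against 6.82 and 6.86 CPM in FL libraries. The rises of Nes (0.22) and Ncam1 (0.19) were small and became -0.16 and -0.19 under ERCC scaling. The summed level of the list was 389 and 390 CPM in del-IDR libraries, against 292 and 306 CPM in FL libraries, and none of its markers was at 0 in all 4 libraries. In bulk samples more cells of a kind and more RNA per cell cannot be told apart.

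Other lineage lists moved less. Of 14 fibroblast genes tested 5 rose and 0 fell, among them Vim (0.43), Fn1 (0.19, -0.19 under ERCC scaling) and Thy1 (1.19), with a median of 0.34 that was -0.04 under ERCC scaling; the markers Lum and Fap had no reads in any of the 4 libraries. Of 25 primitive endoderm genes 2 rose (8%) and 4 fell (16%), near the 9.89% and 10.7% of all genes. The fall with the smallest p was that of Lama1, the laminin chain of the early basement membrane, with 359 and 354 CPM in del-IDR libraries, against 596 and 584 CPM in FL libraries (-0.73 ± 0.04, SE, adjusted p = 1.4e-17). Dab2, an endocytic adaptor of that lineage, fell by 0.76 and the receptor Fgfr2 by 0.59, while Apoe rose by 0.41. Of 17 trophectoderm genes 1 rose (Esx1, 0.73) and 3 fell (Fgfr2, Ets2 and Gata3), and of 20 mesendoderm genes T rose by 1.44 and Wnt3 fell by 0.72. These 2 and Esx1 lost their call with 1 library left out: T did not pass without del-IDR replicate 1 (adjusted p = 0.0921), FL replicate 1 (0.0774) or FL replicate 2 (0.0781), Wnt3 without del-IDR replicate 1 (0.205) and Esx1 without del-IDR replicate 1 (0.0507) or FL replicate 1 (0.0764). The marker Afp of primitive endoderm and Cer1 of mesendoderm had no reads in the 4 libraries.

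Pluripotency genes split. Of 25 naive pluripotency genes 10 (40%) rose and 5 (20%) fell, against 9.89% and 10.7% of all genes. Their median was 0.03, and -0.35 under ERCC scaling. Pou5f1, which encodes OCT4, had 222 and 233 CPM in del-IDR libraries, against 150 and 177 CPM in FL libraries (0.47 ± 0.05, SE, adjusted p = 2.9e-08). Nr0b1, an orphan nuclear receptor, rose by 0.79, Lin28a, which blocks let-7 maturation, by 0.57, and Sox2 by 0.30, which became -0.08 under ERCC scaling. In the other direction Tfcp2l1, a naive-state transcription factor, had 672 and 668 CPM in del-IDR libraries, against 791 and 779 CPM in FL libraries (-0.23 ± 0.03, SE, adjusted p = 8.3e-07), Nr5a2 fell by 0.36 and Dppa3 by 0.56.

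Of 23 formative and primed epiblast genes 8 (34.8%) rose and 2 (8.70%) fell, against 9.89% and 10.7% of all genes. Their median was 0.23, and -0.15 under ERCC scaling. Dnmt3a, a de novo DNA methyltransferase, had 131 and 133 CPM in del-IDR libraries, against 86.1 and 92.0 CPM in FL libraries (0.57 ± 0.05, SE, adjusted p = 6.7e-12). Lin28b had 22.97 and 23.98 CPM in del-IDR libraries, against 13.9 and 13.9 CPM in FL libraries (0.76 ± 0.08, SE, adjusted p = 2.0e-09). Zic5 (0.44), Zic2 (0.61) and the cadherin Cdh2 (0.61) also rose, whereas the 2 falls, Etv4 and the ERK phosphatase Dusp6 (-0.48), are targets of ERK signalling.

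Of 37 genes of the 2-cell-stage programme 7 (18.9%) rose and 2 (5.41%) fell, against 9.89% and 10.7% of all genes. Their median was 0.10, and -0.28 under ERCC scaling. 4 of the rises are Zscan4 copies, near-identical genes whose counts are uncertain; Zscan4f had 10.7 and 11.7 CPM in del-IDR libraries, against 8.99 and 9.03 CPM in FL libraries, a rise of 0.32 that was -0.06 under ERCC scaling and did not pass without del-IDR replicate 2 (adjusted p = 0.114). Germline genes silenced by methylation went both ways, 11 (25.6%) up and 8 (18.6%) down of 43. Smc1b, a meiotic cohesin subunit, had 66.4 and 65.0 CPM in del-IDR libraries, against 40.4 and 40.5 CPM in FL libraries (0.70 ± 0.06, SE, adjusted p = 1.6e-11), and the RNA helicase gene D1Pas1 rose by 0.74. Dazl, an RNA-binding protein of germ cells, had 14.02 and 15.2 CPM in del-IDR libraries, against 29.0 and 27.2 CPM in FL libraries (-0.94 ± 0.10, SE, adjusted p = 1.0e-09).

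Imprinted genes changed at 22 of 50, with 10 (20%) up and 12 (24%) down, against 9.89% and 10.7% of all genes. The median was -0.02. Peg10, a retrotransposon-derived placental gene, had 72.6 and 71.7 CPM in del-IDR libraries, against 122 and 123 CPM in FL libraries (-0.76 ± 0.05, SE, adjusted p = 5.2e-14). Grb10, a growth-restricting adaptor, had 80.2 and 79.7 CPM in del-IDR libraries, against 122 and 118 CPM in FL libraries (-0.58 ± 0.04, SE, adjusted p = 8.3e-13). Sfmbt2 (-0.53) and Jade1 (-0.29) also fell, and Peg3 (0.34), whose value was -0.04 under ERCC scaling, and Snrpn (0.45) rose.

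Regulators of histone H3 lysine 27 changed in both directions. Over all genes tested 20.6% changed (9.89% rose and 10.7% fell). The share that changed was near this for Polycomb repressive complex 1 (21.7%) and under it for other lysine demethylases (11.1%). It was higher for Polycomb repressive complex 2 (46.2%) and the MLL3/4 COMPASS list (37.5%). The 28.6% of the KDM6 list rests on 1 rise and 1 fall. Of 7 genes of the list labelled KDM6 and H3K27 demethylase Kdm6b rose and Kdm2a fell (-0.19). The product of Kdm2a does not act on that lysine, so its fall is not one of an H3 lysine 27 demethylase. Of 18 other lysine demethylase genes 0 rose and 2 fell, Jmjd1c by 0.14 and Kdm5b by 0.11. The calls of these 2 were each lost with 1 library left out, Jmjd1c without del-IDR replicate 1 (-0.11) and Kdm5b without FL replicate 1 (-0.095). Among 13 genes of Polycomb repressive complex 2 3 rose and 3 fell. The core genes Ezh2, Eed and Suz12 did not pass the test, with log2 fold changes of 0.03, -0.00 and 0.02, each with an SE of 0.04 to 0.05. Ezh1, the other catalytic subunit, rose by 0.19, which was -0.19 under ERCC scaling, and Jarid2 fell by 0.09. Among accessory genes Aebp2 had 206 and 211 CPM in del-IDR libraries, against 301 and 291 CPM in FL libraries (-0.51 ± 0.04, SE, adjusted p = 1.0e-11), Mtf2 fell by 0.32 and Epop, which had 44.2 and 45.9 CPM in del-IDR libraries, against 30.7 and 34.0 CPM in FL libraries, rose by 0.48. Phf19 rose by 0.53. Under ERCC scaling Epop (0.10, adjusted p = 0.332) and Phf19 (0.15, adjusted p = 0.347) did not pass. In Polycomb repressive complex 1, 2 of 23 rose (Phc1 by 0.17 and L3mbtl2 by 0.21) and 3 fell, with Pcgf5 at -0.41 and Rybp at -0.17. The values of Phc1 and L3mbtl2 were -0.21 and -0.17 under ERCC scaling, and Rybp did not pass without del-IDR replicate 1 (adjusted p = 0.0696), del-IDR replicate 2 (0.0617) or FL replicate 1 (0.116). The list labelled MLL3/4 COMPASS partners also holds members of other COMPASS complexes, among them Cxxc1 and Kmt2a. Of its 16 genes tested 3 rose and 3 fell. Dpy30 (0.36), Cxxc1 (0.28) and Wdr5 (0.19) were higher, each negative under ERCC scaling, and Kmt2a (-0.16) was lower. Cxxc1 did not pass without FL replicate 1 (adjusted p = 0.0932).

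Developmental genes classically silenced by Polycomb held few calls. Of 36 Hox genes tested 0 rose and 1 fell, Hoxc12, with 3.85 and 3.29 CPM in del-IDR libraries, against 5.16 and 5.42 CPM in FL libraries (-0.57 ± 0.15, SE, adjusted p = 0.0057). Of 91 other Polycomb-bound developmental regulators 5 rose (5.49%) and 3 fell (3.30%), both shares under those of all genes. Summed over the 39 Hox genes listed, the level was 60.9 and 56.9 CPM in del-IDR libraries, against 55.3 and 55.2 CPM in FL libraries. For the 95 regulators listed it was 293 and 295 CPM, against 287 and 281 CPM. Of all tested genes with a higher group mean under 1 CPM 1.99% rose and 1.85% fell. The part of level in the few calls was not tested. Bmp4, a ligand of ventral patterning, had 3.30 and 2.98 CPM in del-IDR libraries, against 1.28 and 1.81 CPM in FL libraries (1.03 ± 0.25, SE, adjusted p = 0.0027). Meis2, a homeobox cofactor, had 48.9 and 48.4 CPM in del-IDR libraries, against 65.8 and 62.4 CPM in FL libraries (-0.40 ± 0.05, SE, adjusted p = 1.4e-07), and Tbx15 (-0.91) and Gata3 (-0.54) fell as well. Hoxc12 did not pass without del-IDR replicate 2 (adjusted p = 0.104), nor Bmp4 without FL replicate 1 (0.0904). The list medians, 0.24 for Hox and 0.21 for the regulators, were -0.14 and -0.16 under ERCC scaling.

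Ribosomal protein genes rose together relative to the typical gene. Of 82 ribosomal protein genes 70 rose and 0 fell, with a median of 0.37 that was -0.01 under ERCC scaling, so relative to the ERCC RNAs the list was level while the typical gene was lower. Rps16 had 190 and 190 CPM in del-IDR libraries, against 126 and 130 CPM in FL libraries (0.57 ± 0.05, SE, adjusted p = 5.8e-11), and Rpl41 had 420 and 414 CPM in del-IDR libraries, against 274 and 303 CPM in FL libraries. As a share of all gene reads these genes came to 2.74% and 2.76% in del-IDR libraries, against 2.12% and 2.16% in FL libraries. Many have processed pseudogenes, which makes single counts uncertain. Of 15 mitochondrially encoded genes 10 rose and 0 fell, with a median of 0.42 (0.03 under ERCC scaling), and mt-Co1 had 1873 and 1891 CPM in del-IDR libraries, against 1278 and 1244 CPM in FL libraries. Of 52 histone genes 15 rose and 0 fell, with a median of 0.28 that was -0.10 under ERCC scaling; the linker histone gene Hist1h1e rose by 0.40. Of 9 small structured RNAs tested 0 passed. ERCC, mitochondrial and intron-side shares moved with these lists, and their part was not tested.

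Of 36 hypoxia and glycolysis genes 14 (38.9%) rose and 5 (13.9%) fell, against 9.89% and 10.7% of all genes. Their median was 0.10, and -0.27 under ERCC scaling. The shares were 36% and 8% for heat-shock genes and 28.6% and 9.52% for ATF4 and unfolded-protein-response genes. Aldoa had 366 and 360 CPM in del-IDR libraries, against 249 and 270 CPM in FL libraries (0.48 ± 0.04, SE, adjusted p = 1.8e-10), and Eno2, the neuronal enolase, rose by 0.62. Ldha (0.38), Pkm (0.33, -0.05 under ERCC scaling), Pfkp (0.35, -0.03) and Gapdh (0.40) rose too, whereas Ndrg1, a hypoxia-responsive gene outside glycolysis, had 29.6 and 27.2 CPM in del-IDR libraries, against 40.3 and 39.6 CPM in FL libraries. Of 25 heat-shock genes 9 rose and 2 fell, with a median of 0.07, and 0 rose and 17 fell under ERCC scaling, with a median of -0.31. The chaperone gene Hspa8 had 1453 and 1417 CPM in del-IDR libraries, against 1024 and 965 CPM in FL libraries. Hsp90ab1 had 3469 and 3426 CPM in del-IDR libraries, against 2656 and 2823 CPM in FL libraries, a log2 fold change of 0.33 that was -0.05 under ERCC scaling. Of 42 ATF4 and unfolded-protein-response genes 12 rose and 4 fell, with a median of 0.12, and 0 rose and 31 fell under ERCC scaling, with a median of -0.26. Creld2 stood at 0.38 and Slc7a3 at 0.48, which were 0.0021 and 0.10 under ERCC scaling and did not pass there, with Cbs at -0.30 and Cars at -0.24.

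Signalling lists were mixed, and under ERCC scaling those of this paragraph held from 0 to 2 rises and from 9 to 29 falls each. Over all genes tested 9.89% rose and 10.7% fell. Shares that rose and fell were 13.9% and 19.4% for ERK-induced, 17.2% and 20.7% for WNT-induced and 25% and 4.17% for Nodal and BMP genes. They were 15% and 20% for LIF and STAT3 and 11.4% and 25.7% for p53. For interferon they were 12.5% and 0%, and for cholesterol synthesis 0% and 12%. Of 36 ERK-induced genes 5 rose, among them Klf10 (0.59), and 7 fell, among them Etv4, Ccn1 (-0.44) and Spred1 (-0.33). Of 29 WNT-induced genes 5 rose, with Notum at 0.65, and 6 fell, with the effector Tcf7l2 at 20.3 and 20.3 CPM in del-IDR libraries, against 31.7 and 33.2 CPM in FL libraries (-0.68 ± 0.07, SE, adjusted p = 2.2e-09), and with Tcf7l1 (-0.25) and Nkd2 (-0.29). Of 24 Nodal and BMP target genes 6 rose and Id2 fell by 0.64; Lefty2, a Nodal antagonist, had 7.72 and 9.19 CPM in del-IDR libraries, against 4.77 and 4.78 CPM in FL libraries (0.83 ± 0.11, SE, adjusted p = 2.4e-07), and Nodal rose by 0.30 (-0.08 under ERCC scaling). Of 20 LIF and STAT3 targets 3 rose, among them Pim3 (0.31) and Pim1 (0.28), which were -0.07 and -0.10 under ERCC scaling, and 4 fell, among them Bcl3 (-0.47). Of 35 p53 targets 4 rose, among them Bax (0.39) and Ccng1 (0.23, -0.15 under ERCC scaling), and 9 fell, among them Plk2 (-0.47) and Trp53inp1 (-0.22). Of 32 interferon-stimulated genes 4 rose and 0 fell: Ifitm3 (0.63), Bst2 (1.14), Ddx58 (0.53) and Oas3 (0.52). Under ERCC scaling 2 interferon-stimulated genes rose and 9 fell, the median of 0.22 became -0.17, and Ddx58 (0.15) and Oas3 (0.14) did not pass. Of 25 cholesterol synthesis genes 0 rose and 3 fell, among them Cyp51 by 0.29. Several of these calls were lost with 1 library left out: Oas3 without any 1 of the 4 (adjusted p from 0.0546 to 0.183), Ddx58 without del-IDR replicate 2 (0.0662), Nodal without del-IDR replicate 2 (0.0693) or FL replicate 2 (0.0553), Nkd2 without del-IDR replicate 1 (0.106), and Cyp51 without del-IDR replicate 1 (0.053).

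Of 38 mitotic genes 3 (7.89%) rose and 7 (18.4%) fell, against 9.89% and 10.7% of all genes. The falls included Aspm (-0.29) and Cenpf (-0.15). Of 30 genes of H3K9 methylation and heterochromatin 5 rose, with Cbx1 at 0.33 and Fam208a at 0.26 (-0.05 and -0.12 under ERCC scaling), and 6 fell, with Chd4 and Resf1 at -0.25. Of 36 clustered protocadherin genes 5 rose and 0 fell, all of the gamma cluster, among them Pcdhga3 at 0.54, and 0 rose and 8 fell under ERCC scaling. Pcdhgb7, Pcdhgb1 and Pcdhga1 each lost their call without del-IDR replicate 1 (adjusted p = 0.196, 0.218 and 0.382) and without FL replicate 1 (0.21, 0.143 and 0.137), and Pcdhga1 also without FL replicate 2 (0.053). In a fit of the 4 KDM6B libraries alone Pcdhga1 (0.0624) and Pcdhgb7 (0.0537) did not pass. The annotated spans of these genes overlap and share exons, so these counts are not separate. Of 399 KRAB zinc finger and Zfp genes 46 rose and 47 fell, close to the background in each direction, with Zfp819 (0.99) and Zfp978 (0.50) up and Zfp398 (-0.44) and Zfp704 (-0.33) down. Of 309 olfactory and vomeronasal receptor genes tested 22 (7.12%) rose and 9 (2.91%) fell, with a median of 0. Both shares were under the 9.89% and 10.7% of all genes. Members with a call included Vmn1r47 (1.08), Vmn1r219 (2.20), Vmn2r79 (2.47) and Olfr543 (-0.73).

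**Figure D3:**
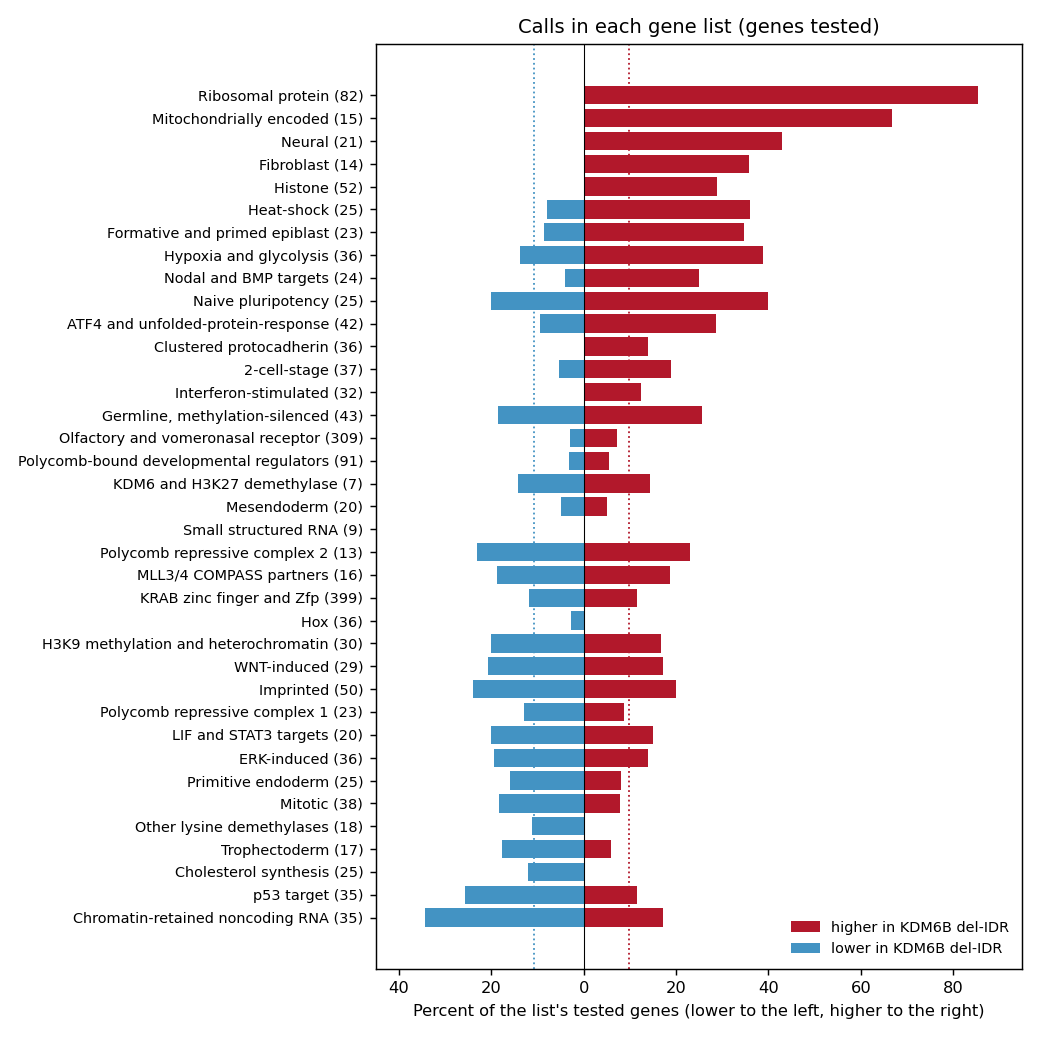
Share of each list's tested genes that rose (red, to the right) or fell (blue, to the left) in KDM6B del-IDR against FL at an adjusted p under 0.05, with the number tested in brackets. Dotted lines mark the shares over all genes, 9.89% and 10.7%; calls are relative to the typical gene, and under ERCC scaling the ribosomal protein list has 2 rises and 12 falls of 82 and the neural list 4 rises and 3 falls of 21.

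Of 35 noncoding RNAs known to stay on chromatin 12 (34.3%) fell and 6 (17.1%) rose, against 10.7% and 9.89% of all genes. The median was -0.06. Pvt1 had 63.4 and 65.4 CPM in del-IDR libraries, against 87.0 and 86.9 CPM in FL libraries (-0.43 ± 0.04, SE, adjusted p = 5.3e-10), and Dleu2 had 33.8 and 33.5 CPM in del-IDR libraries, against 54.3 and 48.8 CPM in FL libraries. Neat1, the scaffold of paraspeckles, had 350.2 and 351 CPM in del-IDR libraries, against 422 and 421 CPM in FL libraries (-0.27 ± 0.03, SE, adjusted p = 3.7e-08). At the X inactivation centre Xist (-0.58), Tsix (-0.37), Ftx (-0.47) and Jpx (-1.70) were all lower. Xist and Tsix lie on opposite strands of the same bases and the counting ignored strand, so these 2 counts are not separate. Airn (-0.50) and Hotair (-0.77) also fell, and Miat (1.06) and Malat1 (0.10, -0.28 under ERCC scaling) rose.

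Transcripts annotated inside other genes held many falls. Of 2008 genes of the TEC class, transcripts listed by the annotation as still needing experimental evidence, 25 rose and 643 fell, with a median of -0.39. Of the TEC genes whose span touches a protein-coding gene 589 of 1497 (39.3%) fell, against 54 of 511 (10.6%) of those apart from one. Sense-intronic genes had 2 up and 82 down of 256. Of antisense genes touching a protein-coding span 299 of 1965 (15.2%) fell and 27 rose, against 6 that fell and 3 that rose of 120 apart from one. Long intergenic RNAs apart from coding genes had 93 rises and 73 falls of 1788. Among protein-coding genes 15.3% rose and 9.98% fell, and shares went with the gene's span: 3.35% of genes under 5 kb fell, against 19.2% of those over 100 kb, while 14.8% of the short and 17.4% of the long genes rose.

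Reads on repeats differed by position. Repeat copies inside gene spans drew 39.3 and 39.6 reads per 100 gene reads in del-IDR libraries, against 48.8 and 47.8 in FL libraries. Copies outside gene spans drew 10.8 and 10.6 in del-IDR libraries, against 10.9 and 10.8 in FL libraries. Inside gene spans the groups were well apart, and outside them they nearly touched. All 4 KDM6B libraries lay below those of the other groups inside gene spans, of which KDM4A del-IDR was nearest at 49.4 to 50.7.

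Of 1035541 single repeat copies tested with the gene library sizes 29798 (2.88%) changed, 2581 up and 27217 down, with a median log2 fold change of -0.30. Inside gene spans 25604 of 818978 copies (3.13%) fell and 1277 rose. Outside them 1613 of 216563 (0.745%) fell and 1304 (0.602%) rose, and fitted alone these outside copies gave 1324 calls (0.611%). By family, 4.80% of long interspersed L1 copies fell and 0.263% rose inside genes, while outside them 0.815% fell and 0.988% rose. Of endogenous retroviruses of the ERVK family 4.397% fell and 0.36% rose inside genes, while outside 0.902% fell and 0.929% rose. Of short interspersed B2 copies 3.55% fell and 0.229% rose inside genes, while outside 0.694% fell and 0.962% rose. Inside genes falls outnumbered rises in these 3 families, and outside them rises were slightly more numerous. ERV1 copies outside genes also had more rises (0.933%) than falls (0.798%). Falls were more numerous there for Alu (0.657%, against 0.132% that rose) and B4 (0.708%, against 0.142%). The same held outside genes for ERVL, ERVL-MaLR, simple repeats and low-complexity tracts.

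**Figure D4:**
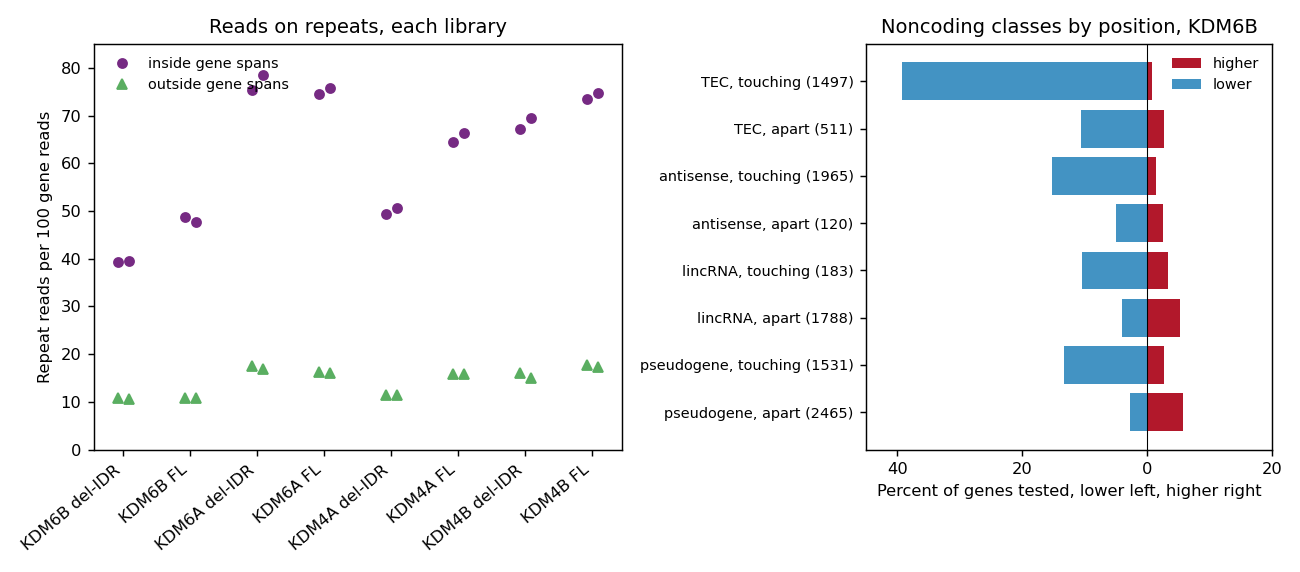
Left, reads on repeat copies inside (circles) and outside (triangles) gene spans per 100 gene reads, each library of each group. Right, share of noncoding gene classes that rose (red) or fell (blue) in KDM6B del-IDR against FL, split by whether the gene touches a protein-coding span, with the number tested in brackets; 39.3% of TEC genes touching such a span fell, against 10.6% of the others.

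Summed by family, and set against other families, 14 of 60 (23.3%) changed, 12 up and 2 down. The largest rise was that of srpRNA, copies of the 7SL RNA of the signal recognition particle, with 8270 and 10110 CPM over repeat families in del-IDR libraries, against 4801 and 5678 in FL libraries (0.81 ± 0.12, SE, adjusted p = 9.3e-04), which did not pass in a fit of the 4 KDM6B libraries alone (adjusted p = 0.0871). ERV1 retroviruses had 20244 and 19839 CPM over repeat families in del-IDR libraries, against 15538 and 16344 in FL libraries (0.33 ± 0.03, SE, adjusted p = 4.2e-08). The tRNA family (0.41), the Unknown class (0.33) and Gypsy elements (0.32) also rose, and the DNA transposons PiggyBac (-0.27) and Kolobok (-0.19) fell. Without 1 of the libraries Kolobok did not pass in any case (adjusted p from 0.0621 to 0.164), nor PiggyBac without del-IDR replicate 1 (0.0938) or FL replicate 1 (0.11). These directions depend on what the reads are set against. Scaled by gene reads, 41 families changed, 1 up and 40 down: srpRNA kept its rise (0.48), ERV1, Gypsy and the Unknown class were level (-0.00, -0.01 and -0.00), and L1 was at -0.24. Scaled by ERCC reads all 52 families that changed were down.

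At single copies of at least 1000 bases the clearest rise lay beside Slco1c1. An L1 element of 6446 bases (chr6:141523763-141530208, GRCm39, minus strand) lies 7860 bases past the end of that plus-strand gene, and drew 63.7 and 62.8 CPM in del-IDR libraries, against 12.5 and 10.7 CPM in FL libraries (2.44 ± 0.09, SE, adjusted p = 7.2e-102). This element, Slco1c1 and both their del-IDR libraries were high together, and strand was not recorded in the counts. An L1 copy on chromosome 17 (chr17:14307853-14309218, GRCm39) had 1.20 and 1.35 CPM in del-IDR libraries, against 0.173 and 0.135 CPM in FL libraries, an L1 copy on chromosome 16 rose by 2.58 and an ERVK copy on chromosome 11 by 2.501. Of the 4 largest falls, 2 L1 copies close to each other on chromosome 17 rest on FL replicate 1. The larger (chr17:40209955-40211969, GRCm39) had 2 and 4 reads in del-IDR libraries, against 4859 and 24 reads in FL libraries, and its log2 fold change of -9.68 became -3.07 (adjusted p = 0.0038) without FL replicate 1. The other (chr17:40207285-40208520) had 1 and 1 reads in del-IDR libraries, against 108 and 2 reads in FL libraries, and did not pass without that library (-1.03, adjusted p = 0.88). The other 2 falls, an L1 copy inside 4930425L21Rik on chromosome 6 (-3.07) and one inside Pign on chromosome 1 (-2.38), passed the test without FL replicate 1 and without FL replicate 2.

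By chromosome, protein-coding genes of chromosome 8 stood out. Of 893 tested 213 (23.9%) rose and 42 (4.70%) fell, against 11.3% to 18.6% and 7.07% to 14.6% on the other autosomes and X. The median log2 ratio there was 0.09 to 0.11 in each of the 4 pairings of a del-IDR with an FL library, and the fitted medians of the other chromosomes ran from -0.01 to 0.09. Under ERCC scaling the chromosome 8 median was -0.28, the least negative of the autosomes. Reads on chromosome 8 made up 5.36% and 5.35% of protein-coding reads in del-IDR libraries, against 5.08% and 5.13% in FL libraries, and 5.12% to 5.63% in the other 6 groups. For KDM6A the chromosome 8 median was -0.02.

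**Figure D5:**
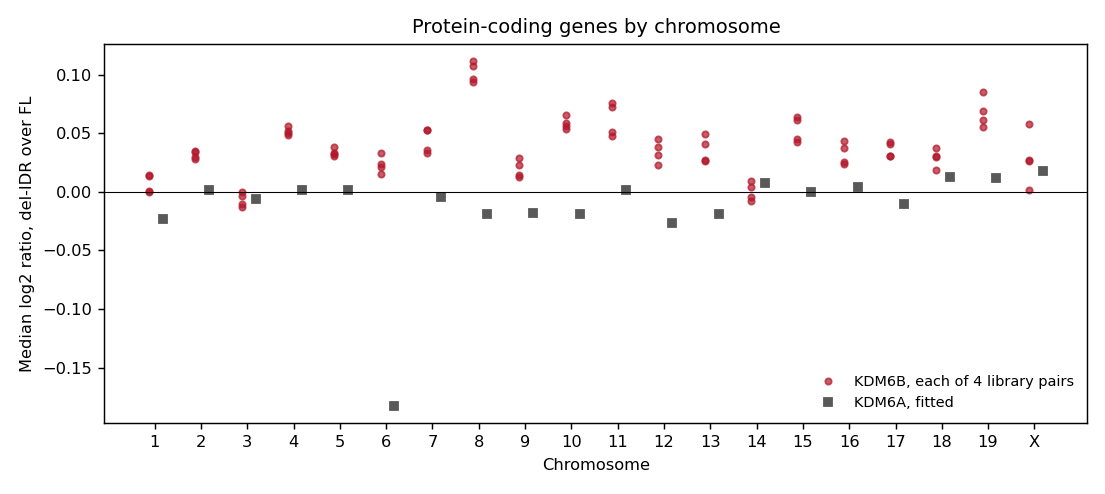
Median log2 ratio of protein-coding genes, del-IDR over FL, by chromosome. Red points are the 4 pairings of 1 KDM6B del-IDR with 1 KDM6B FL library and grey squares the fitted KDM6A medians; chromosome 8 has the highest KDM6B values (0.09 to 0.11), and chromosome 6 the lowest KDM6A value (-0.18).

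The change was also set against that of the related demethylase KDM6A, whose del-IDR and FL libraries are separate from those of KDM6B. For KDM6A, 2578 genes (8.3%) rose and 2687 (8.65%) fell. Of the 3072 KDM6B rises 478 (15.6%) also rose for KDM6A, which is 18.5% of its rises, and 615 (20.02%) fell for KDM6A, which is 22.9% of its falls. Of the 3335 KDM6B falls 305 (9.15%) also fell for KDM6A, 11.35% of its falls, and 565 (16.9%) rose, 21.9% of its rises. Opposite calls were more numerous than shared ones in both directions. Shared rises (15.6%) also lay above the 8.3% of all genes that rose for KDM6A, and shared falls (9.15%) lay near the 8.65% that fell. The difference between the deletion effects passed the test at 6768 genes (21.8%), 3338 higher and 3430 lower for KDM6B. Under ERCC scaling it passed at 7410 genes, 1728 higher and 5682 lower for KDM6B.

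Several genes moved in opposite directions for the 2 proteins. Rhox5 rose for KDM6A, with 9.81 and 8.21 CPM in KDM6A del-IDR libraries, against 3.74 and 5.11 CPM in KDM6A FL libraries, so that the difference between its effects was -2.30 (adjusted p = 7.0e-12). Vill fell for KDM6A, with 8.29 and 7.79 CPM in KDM6A del-IDR libraries, against 16.04 and 15.1 CPM in KDM6A FL libraries (difference 2.05, adjusted p = 7.1e-16). Of the hypoxia and glycolysis list 14 of 36 rose and 5 fell for KDM6B and 1 rose and 19 fell for KDM6A, and the difference passed the test at 25 of 36 genes, 24 of them higher for KDM6B. Of the neural list 7 of 21 were higher for KDM6B and 0 lower, and of the ribosomal protein list 47 of 82 were higher and 1 lower. Slco1c1 and Stmn2 rose for KDM6A as well (0.77 and 0.57) but less, with differences of 2.21 and 0.86.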

How the data were processed

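RNA associated with chromatin was sequenced after removal of ribosomal RNA, with a stranded total RNA kit, per the labels' protocols. The deposited values are raw read counts per gene and per repeat copy, made with featureCounts 2.0.3 per the file headers, which show a mapping-quality limit of 30, strand ignored, the reads of a pair counted one by one, and HISAT2 alignments to GRCm39 plus spike-ins. SAMtools and Picard appear in the submitters' processing notes, without versions. Symbols and classes came from GENCODE by Ensembl ID: 52000 of 56941 genes had a symbol.

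Gene counts were tested with edgeR 4.0.16 (R 4.3.3): TMM scaling, filterByExpr at a minimum count of 10, and quasi-likelihood tests from 1 model over the 16 libraries (a mean for each of the 8 groups, 8 residual degrees of freedom). P-values were adjusted by Benjamini-Hochberg over all genes at 0.05. CPM values are per effective library size. Repeat families used TMM over families, and repeat copies (at least 5 reads in at least 2 libraries) the gene library sizes. The fits were tested on simulated data.

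Named genes were the overexpressed demethylases, the 10 largest and 10 most abundant 2-fold changes in each direction (at least 1 CPM in the higher group, libraries not overlapping, no gene models), up to 4 members per list by smallest p, and the 5 largest differences from KDM6A in each direction. Other list members named, the promoters and the chromosomes were chosen after their values were seen. The comparison and the 37 lists were chosen with earlier results of these data known. Alternatives were DESeq2 1.42.0, median-ratio and ERCC scaling, no filter, the 4 libraries alone, a replicate block and leaving out each library; edgeR's bias-adjusted quasi-likelihood was added after seeing the data. A check of promoter CG content over all genes was void, since 78.6% of protein-coding genes tested had a window where 80% are needed. A few genes that the rule would name are not reported here.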

Additional observations from a re-analysis of the deposited data

Results flagged for a closer look

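The effect of removing the region differed between KDM6B and KDM6A, by the test of the difference, at 6768 genes. The differences below are KDM6B minus KDM6A on the log2 scale.

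Higher for KDM6B were Gstt1 (7.835), Hrh3 (4.406), Syt6 (4.079), Epha8 (3.666), H2-Q6 (3.639), Vill (2.049), H2-D1 (1.543), Elavl3 (1.338), Slfn9 (1.336), Nefl (1.263) and Oas3 (1.158). Gstt1, a glutathione transferase, had 0 and 0 CPM in KDM6A del-IDR libraries, against 0.226 and 0.314 CPM in KDM6A FL libraries, and Hrh3 had 0.0447 and 0 CPM in KDM6A del-IDR libraries, against 0.0451 and 0.114 CPM in KDM6A FL libraries, so these 2 fitted differences depend on the prior count and are no measured sizes. Syt6 had 0.0894 and 0.326 CPM in KDM6A del-IDR libraries, against 0.699 and 0.485 CPM in KDM6A FL libraries. H2-Q6, and of the genes below Olfr1432 and Slc5a12, did not pass the test for KDM6B alone (adjusted p = 0.141, 0.0533 and 0.0887). With 1 library left out Gstt1, Epha8 and Oas3, and of the genes below Cntf and Olfr545, lost their KDM6B call. The call of Gstt1 was lost without del-IDR replicate 2 (log2 fold change 0.79), FL replicate 1 (1.34) or FL replicate 2 (1.23). That of Epha8 was lost without del-IDR replicate 2 (1.25) or FL replicate 2 (1.05). Cntf lost its call without del-IDR replicate 2 (-1.36) or FL replicate 1 (-1.45). Olfr545 lost its call without del-IDR replicate 1 (-1.4), del-IDR replicate 2 (-1.19) or FL replicate 1 (-0.84).

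Lower for KDM6B were Olfr1432 (-4.746), Slc5a12 (-2.883), Cntf (-2.67), Grm8 (-2.663), Olfr545 (-2.494), Rhox5 (-2.297), Gata3 (-1.14), Meis2 (-1.122) and Xist (-1.088). Olfr1432 had 0 and 0 reads in KDM6B del-IDR libraries, against 6 and 0 reads in KDM6B FL libraries, too few for a fold, and Slc5a12 had 0 and 4 reads in KDM6B del-IDR libraries, against 12 and 4 reads in KDM6B FL libraries, which overlap. Cntf, a neurotrophic cytokine, had 1.74 and 1.61 CPM in KDM6A del-IDR libraries, against 0.925 and 1.14 CPM in KDM6A FL libraries.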

How the results depend on the processing

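The number of genes changed, KDM6B del-IDR against FL, was 6407. It was 13954 under ERCC scaling (4385 of them shared, 68.4% of the 6407), from 4078 to 4928 with 1 library left out (59.7% to 70.0% of the calls shared; the lowest was without FL replicate 1), and within 1.5 times the 6407 under median-ratio scaling, no filter, the 4 libraries alone, DESeq2 and the bias-adjusted fit, which was chosen after seeing the data. The library numbers did not pair the KDM6B samples (r = -0.002 between their deviations); with the replicate block 7292 genes passed, and the 171 of 178 named genes that passed without the block passed with it. Of the 178 named genes 10 to 19 lost their call with 1 library left out, 3 with the 4 libraries alone and 1 with DESeq2. Repeat families changed, KDM6B del-IDR against FL, numbered 14, and 52 under ERCC scaling, 41 with library sizes of the gene table and 10 to 16 with 1 library left out. Repeat copies changed, KDM6B del-IDR against FL, numbered 29798, and 131032 under ERCC scaling, 16379 with the bias-adjusted fit, 12202 to 19247 with 1 library left out and 1324 for copies outside gene spans fitted alone. The causes of these shifts were not tested. ERCC scaling turned the log2 fold change of Kdm6b (-0.16), Kdm4b (-0.37), Dpy30 (-0.0235), Cxxc1 (-0.10), Wdr5 (-0.19), Phc1 (-0.21), L3mbtl2 (-0.17), Sox2 (-0.0801), Dppa2 (-0.13), Zscan4f (-0.0623), Zscan4a (-0.11), Pcdhga1 (-0.052), Nodal (-0.0805), Pim3 (-0.0734), Pim1 (-0.10), Ccng1 (-0.15), Hsp90ab1 (-0.0474), Stip1 (-0.16), Pfkp (-0.0261), Pkm (-0.0465), Cbx1 (-0.0544), Fam208a (-0.12), Nusap1 (-0.18), Hist1h4d (-7.1e-06), mt-Nd4 (-0.0703), mt-Cytb (-0.13), Fn1 (-0.19) and Mmp2 (-0.12), and of the families tRNA (-0.30), Unknown (-0.39), ERV1 (-0.38) and Gypsy (-0.39). Gene library sizes turned Unknown (-0.0035), ERV1 (-0.0029) and Gypsy (-0.013), and copies outside gene spans turned srpRNA (-0.20) and Kolobok (0.0022). The number of genes whose KDM6B effect differs from that of KDM6A was 6768, and 7410 under ERCC scaling (1728 higher for KDM6B) and 5418 to 5928 with 1 library left out. With 2 libraries a group, small changes in genes of few reads cannot be seen at this depth.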
